A study of Homo sapiens with 6 samples.

Results

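The interferon response and antigen presentation genes are a list of 42 genes that covers the interferon receptors, the STAT and IRF factors, sensors and enzymes of double-stranded RNA, interferon-stimulated effectors and the MHC class I pathway. The members were listed by their known roles, with earlier results of these data in view, and were found among 35810 genes of the files by matching transcript identifiers to GENCODE 44. Of the 42 genes, 39 had enough reads to be tested.

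Poly(A)+ RNA was sequenced from SPT5-AID cells, a derivative of the human colorectal adenocarcinoma line DLD-1 in which the elongation factor SPT5 carries an auxin-inducible degron. The 3 shARMC5 libraries come from cells with an shRNA against ARMC5, an adaptor of the ubiquitin ligase CUL3, and the 3 shNT libraries from cells with a non-targeting shRNA. The labels name no auxin treatment for any library. By the study's methods, both kinds of cell had been infected with lentivirus and selected with puromycin, 2 constructs against ARMC5 were in use, and the labels do not say which of them these libraries carry. The study's methods call its replicates biological, but neither they nor the labels describe separate cultures for these libraries, so P values measure the spread between them. The 6 libraries hold between 26201112 and 40866478 estimated reads, and ARMC5 itself was at 11.9 ± 1.09 normalized read counts (CPM, scaled to the library) in shARMC5 against 25.2 ± 1.95 CPM in shNT (SD, n = 3 each), a log2 fold change of -1.09 (edgeR adjusted P = 5.32e-07). The epithelial markers EPCAM, KRT8, KRT18, KRT19, CDH1, CDX2 and VIL1 all passed the count filter, whereas 3 of 6 leukocyte and 1 of 5 fibroblast markers passed it, all at low levels: CD68 had 41 to 66 reads, LYZ 10 to 25, CD14 0 to 40 and COL1A1 8 to 12. Of the markers that did not pass, PTPRC, CD3E, LUM and PDGFRA had at most 1 read in any library, COL1A2 had 0 to 3 and DCN 0 to 4. Of the epithelial markers VIL1 fell by 1.30 on the log2 scale (adjusted P = 2.77e-06) and KRT8, KRT18 and KRT19 rose by 0.11 to 0.25.

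Interferons are secreted proteins that bind receptors on the cell surface. Type I interferons act through IFNAR1 and IFNAR2, and interferon gamma through IFNGR1 and IFNGR2. The receptors activate JAK kinases, which phosphorylate STAT proteins. A complex with STAT2 and IRF9 binds the interferon-stimulated response element (ISRE) in promoters, and STAT dimers bind the gamma-activated sequence (GAS). The genes that follow sense, cut, bind or edit viral RNA, and the class I genes load peptides and carry them to the cell surface for T cells. Many of these genes also have a basal level without added interferon.

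The promoters of the list were read from the RefSeq table of GRCh38.p14, which gives 250 bases before and 50 bases after each annotated start and holds 35 of the 42 genes. The entries missing are HLA-E, IFIT2, IFNAR2, IRF3, IRF7, OAS2 and OASL. The core of the ISRE was searched as GAAANNGAAA on both strands (TTTCNNTTTC on the opposite strand), and the core of the GAS as TTCNNNGAA, which reads the same on both strands. The 2 motifs can overlap each other. The ISRE core stood in the window of 21 of the 35 genes, or 60%, and in 4.38% of the 27305 genes in the table (3.57% of 35116 promoters). A narrower form, GAAACNGAAA, stood in 15 of the 35 genes and in 0.941% of all genes. The GAS core stood in 10 of the 35 genes and in 9.38% of all genes. A match is a run of letters and not a bound site. The table gives 46 windows for these 35 genes, since some have several annotated starts, and a gene was counted when any of its windows held the core. The stretches below show, for 10 genes, the first ISRE core of the first window in the table that holds one, with 15 bases on each side, read 5′ to 3′ along the strand of the gene, with every match to the core in the stretch in capitals. They were chosen to show genes at levels from the highest of the list to 0 reads.
ISG15: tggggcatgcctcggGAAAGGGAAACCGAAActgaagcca
OAS3: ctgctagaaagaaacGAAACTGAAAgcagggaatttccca
EIF2AK2: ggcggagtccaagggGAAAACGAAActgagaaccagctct
B2M: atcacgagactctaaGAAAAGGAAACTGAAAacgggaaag
TAP1: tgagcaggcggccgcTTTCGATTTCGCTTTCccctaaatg
TRIM21: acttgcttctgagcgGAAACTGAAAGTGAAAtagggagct
MX1: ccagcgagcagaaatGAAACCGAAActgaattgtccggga
IFIT1: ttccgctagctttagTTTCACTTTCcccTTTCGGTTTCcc
IFI44: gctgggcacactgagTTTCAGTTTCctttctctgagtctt
BST2: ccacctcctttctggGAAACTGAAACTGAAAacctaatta
These stretches lie at chr1:1013369-1013408 on the plus strand for ISG15, chr12:112938316-112938355 on the plus strand for OAS3, and chr2:37156962-37157001 on the minus strand for EIF2AK2. B2M is at chr15:44711358-44711397 on the plus strand, TAP1 at chr6:32853814-32853853 on the minus strand, and TRIM21 at chr11:4393661-4393700 on the minus strand. MX1 is at chr21:41420554-41420593 and IFIT1 at chr10:89392492-89392531, both on the plus strand. IFI44 is at chr1:78649756-78649795 on the plus strand and BST2 at chr19:17405736-17405775 on the minus strand. In ISG15, B2M, TAP1, TRIM21 and BST2, 2 overlapping cores share their middle letters, and IFIT1 has 2 separate ones within the stretch.

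The basal level of the list in shNT cells was high for a few genes and near the detection limit for others. Levels between genes are compared as TPM, the abundance of transcripts scaled to the library and corrected for length. The order rests on matched transcripts alone. ISG15, a ubiquitin-like modifier, had the highest value at 126.7 ± 2.74 TPM in shNT (SD, n = 3). IRF3, which drives interferon genes after viral sensing, followed at 94.6 ± 3.76 TPM and B2M, the invariant light chain of class I, at 92.4 ± 4.69 TPM, and the shNT libraries of these 2 genes overlapped. The place of B2M is uncertain, since unmatched transcripts listed among or just after its own held 158 to 291 reads (ENST00000559220) and 538 to 1015 reads (ENST00000544417). EIF2AK2, the kinase PKR that halts translation, and ADAR, which edits double-stranded RNA, were at 83.1 ± 3.24 and 81.9 ± 4.87 TPM and overlapped as well. Within each role the highest members were IFNGR1 among the receptors (55.6 ± 1.23 TPM), IFIH1 among the RNA sensors (19.8 ± 1.33 TPM), IFIT5 in the IFIT family (11.8 ± 0.816 TPM), MX1 among the other antiviral effectors (5.11 ± 0.415 TPM), IFI6 among the IFI genes (28.3 ± 2.30 TPM), PARP14 among the PARP and TRIM genes (33.7 ± 4.49 TPM) and TAPBP in peptide loading (41.1 ± 3.88 TPM).

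At the other end, 6 of the 42 genes had a mean under 1 TPM in shNT, and 2 of these, BST2 and IFI44, had 0 reads in all 6 libraries. A count of 0 allows up to 3 reads, or between 0.0757 and 0.118 CPM per library, so a lower level would not have been detectable at this depth. BST2 (tetherin) holds budding virus at the cell surface. The other 4 genes under 1 TPM were OASL at 0.267 ± 0.0811, IFIT2 at 0.629 ± 0.123, OAS2 at 0.690 ± 0.0485 and HLA-B at 0.729 ± 0.992 TPM. Genes with the ISRE core were found at both ends: the tested ones ranged from 1.16 to 126.7 TPM, and IFI44 and BST2 carry it as well. From place 21 (IFIT5) downwards, the shNT libraries of most neighbours in the order overlapped. The exceptions were IRF9 above IFNGR2, IFIT2 above OASL and OASL above the genes with 0 reads.

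**Figure D1:**
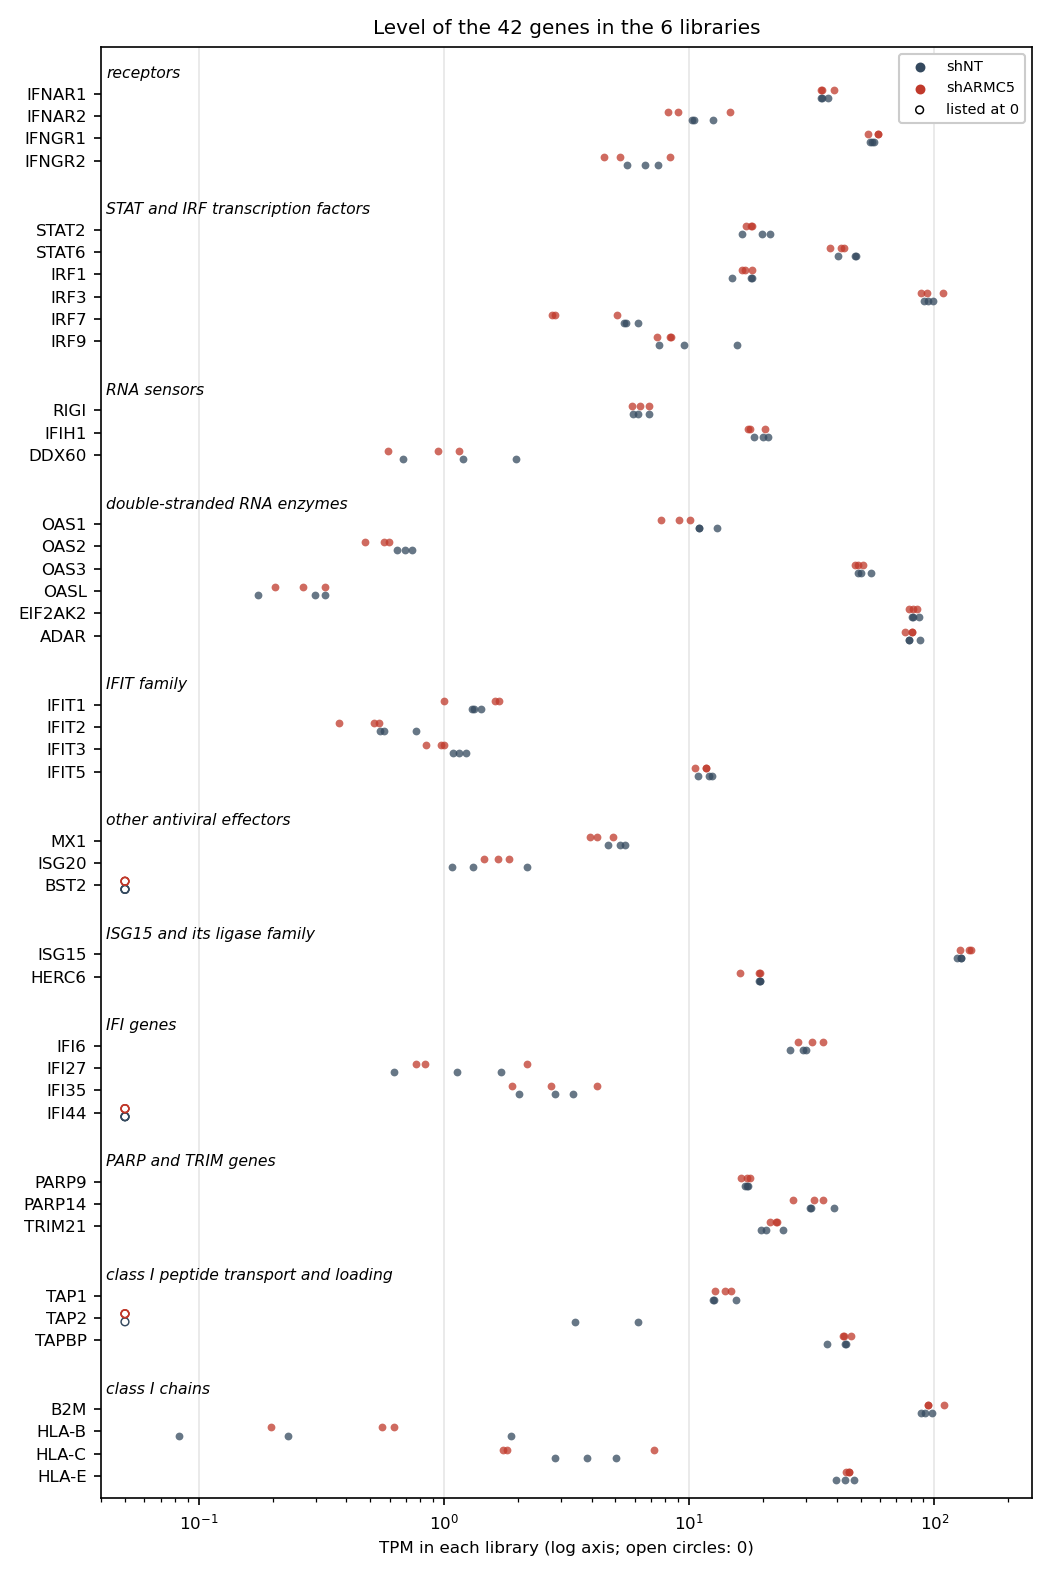
The level of each gene in TPM (log axis) in the 3 shNT and 3 shARMC5 libraries, grouped by role, with 1 filled point per library and open circles for a value of 0. ISG15 lies highest in all 6 libraries, BST2 and IFI44 are at 0 throughout, and the points of the 2 groups lie close together for most genes.

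The main comparison asked whether knockdown of ARMC5 moved these genes. Of the 39 tested genes, 2 were called at an adjusted P under 0.1, both lower in shARMC5 (5.13%), and 0 were called higher. Over all 13737 tested genes, 7.75% were called, 3.3% lower and 4.44% higher. DESeq2 called the same number of members lower and 0 higher. With the transcript length offset 0 members were called lower in edgeR and in DESeq2, and 1 to 4 were when single libraries were left out. At an unadjusted P under 0.05, edgeR had 5 members lower and 1 higher of 39, against 1138 lower and 1343 higher of all 13737 genes. The signs were nearly even, with 20 genes negative and 19 positive, and the median log2 fold change was -0.00569, against -0.00142 over all tested genes. The shARMC5 libraries all lay below the shNT libraries in 8 of the 39 members (20.5%), against 10.9% of all tested genes, and all above in 2 (5.13%, IFNAR1 and ISG20), against 12.5% of all genes. In 29 members the groups overlapped.

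The precision of this depended on the reads. In 24 members with at least 200 reads in every library, the log2 fold changes lay between -0.39 and 0.18, and in 23 of these genes the 95% confidence interval stayed within 0.5 of 0 on the log2 scale. The exception was OAS1, whose interval reached -0.60. Among the 15 tested members with fewer reads, only 3 had an interval that narrow, and their fold changes ran from -0.66 to 0.39. The values of ADAR, HERC6, IRF1, IRF3, MX1, PARP9, RIGI and TAP1 lay within 0.05 of 0 and changed sign in at least 1 of the fits that leave out a library.

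**Figure D2:**
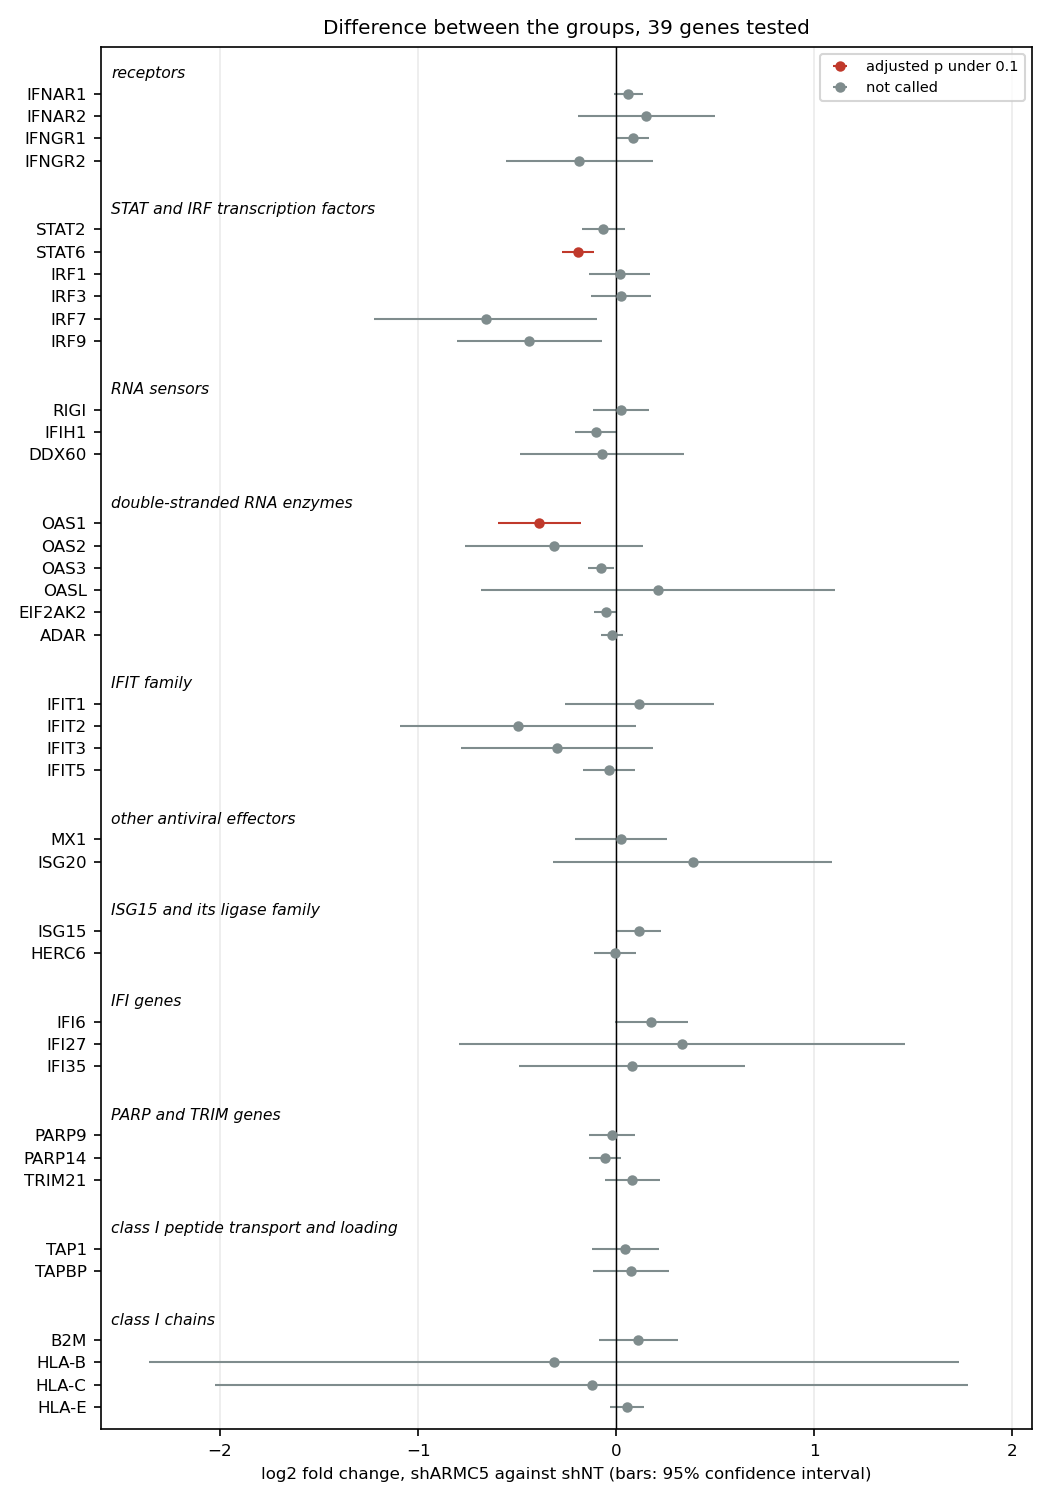
The log2 fold change of shARMC5 against shNT for the 39 tested genes by role, with 95% confidence intervals as bars, red for an adjusted P under 0.1. STAT6 and OAS1 are the 2 red points, both left of 0, and the widest bars belong to HLA-B and HLA-C.

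STAT6 (ENSG00000166888, chr12:57095408-57132139, minus strand) is the STAT factor that acts after interleukin-4 and interleukin-13, so it is a neighbour of the interferon factors and not one of them. It was at 85.8, 80.1 and 81.7 CPM in the shARMC5 libraries and at 94.5, 90.7 and 97.6 CPM in the shNT libraries. The 2 groups did not overlap, and every shARMC5 library lay below every shNT library. The log2 fold change was -0.19 (SE 0.039, 95% confidence interval -0.27 to -0.11, edgeR adjusted P = 0.00794). Most of its reads were assigned to the transcript ENST00000300134, which codes for 847 amino acids and had between 1341 and 2100 reads in shARMC5 and between 1796 and 2019 reads in shNT, not scaled for depth. In bulk RNA, fewer cells with a transcript and less of it per cell cannot be told apart. On the TPM scale the groups overlapped, with 40.6 ± 2.74 TPM in shARMC5 against 45.3 ± 4.08 TPM in shNT. When the fit allowed for the average transcript length of each library, STAT6 was no longer called (-0.14 with an adjusted P of 0.493 in edgeR and 0.471 in DESeq2). On the opposite strand the gene overlaps NAB2 and LRP1, whose fold changes were 0.12 and -0.35 (adjusted P of 0.177 and 0.254), and the libraries as described do not record strand. Its promoter window held neither core.

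OAS1 (ENSG00000089127, chr12:112905856-112933219, plus strand) makes 2′-5′ oligoadenylates when it meets double-stranded RNA, which switch on RNase L. The gene had 10.8, 8.39 and 9.91 CPM in shARMC5 and 13.5, 12.1 and 12.3 CPM in shNT, from 250 to 441 reads per library. Again the groups did not overlap. The log2 fold change was -0.39 (SE 0.0998, 95% confidence interval -0.60 to -0.18, adjusted P = 0.0339). In TPM it was 8.94 ± 1.24 in shARMC5 against 11.7 ± 1.2 in shNT. The call was lost without shARMC5 replicate 2 (-0.29, adjusted P = 0.176) and without shNT replicate 1 (-0.34, adjusted P = 0.168). With the length offset it was lost as well, at a fold change of -0.37 in edgeR and in DESeq2 (adjusted P = 0.279 and 0.228). The direction was lower in all these fits. Its promoter window at chr12:112906712-112907011 (GRCh38.p14) is shown whole because OAS1 is the called member whose window holds a core. The GAS core is in capitals. No ISRE core was found in the letters searched, which ask for 2 bases between the GAAA runs. The window also holds gaaacgaaa, with 1 base between these runs, which the search does not count.
OAS1: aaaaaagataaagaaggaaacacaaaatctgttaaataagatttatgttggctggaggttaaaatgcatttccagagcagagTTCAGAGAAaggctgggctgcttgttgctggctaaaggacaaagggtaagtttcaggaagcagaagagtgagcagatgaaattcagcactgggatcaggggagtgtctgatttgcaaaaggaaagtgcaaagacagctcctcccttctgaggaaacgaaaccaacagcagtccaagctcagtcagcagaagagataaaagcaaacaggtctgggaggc

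The OAS genes lie side by side on chromosome 12 in the order OAS1, OAS3, OAS2, and all 3 have the same enzymatic activity. OAS3 was at 213.8, 209.5 and 198.6 CPM in shARMC5 and at 223.6, 217.9 and 213.7 CPM in shNT. Its highest shARMC5 library and its lowest shNT library were almost level, and the log2 fold change was -0.07 (SE 0.031, unadjusted P = 0.0298, adjusted P = 0.213). OAS2 had between 48 and 80 reads and a log2 fold change of -0.31 (95% confidence interval -0.76 to 0.14, adjusted P = 0.477), with groups that did not overlap. OASL, which lies apart from them on the same chromosome and lacks the enzyme activity, had between 8 and 24 reads and a value of 0.21 (interval -0.68 to 1.10), which was -0.08 without shARMC5 replicate 2 and 0.39 without shARMC5 replicate 3.

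By transcript, OAS1 reads were mostly assigned to ENST00000202917, which codes for 400 amino acids and took between 65.8% and 84.8% of the gene's reads. The 364 amino acid form held 12.2% ± 4.24 of the reads in shARMC5 and 14.6% ± 2.27 in shNT (n = 3 each, two-sided exact permutation P = 0.4, where 0.1 is the smallest that 3 against 3 can give).

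Among the other STAT and IRF factors, IRF9 and IRF7 had an unadjusted P under 0.05 and were not called. IRF9, the DNA-binding partner of STAT2, was at 4.06, 5.38 and 3.77 CPM in shARMC5 and at 7.43, 5.34 and 5.21 CPM in shNT. The second shARMC5 library lay among the shNT libraries. The log2 fold change was -0.44 (SE 0.17, unadjusted P = 0.0227, adjusted P = 0.183). It was -0.25 without shNT replicate 1 and 0.06 when the unmatched transcripts listed after IRF9 were added. An unnamed protein-coding gene (ENSG00000259529) overlaps IRF9 on the same strand and had more reads, between 308 and 496 against between 95 and 243 for IRF9, with a log2 fold change of 0.39 (adjusted P = 0.413), so the division of reads between these 2 genes is uncertain. IRF7, the inducible factor for type I interferon genes, was at 1.98, 1.04 and 1.11 CPM in shARMC5 and at 2.20, 2.13 and 2.18 CPM in shNT. The 3 shNT libraries were tightly grouped and the shARMC5 libraries were all lower, with replicate 1 nearest to shNT. The log2 fold change was -0.66 (SE 0.27, adjusted P = 0.194) on 28 to 72 reads, and without shARMC5 replicate 1 it was -1.01 (adjusted P = 0.0542), past the threshold. All of the IRF7 reads were assigned to 2 transcripts annotated as retained introns, ENST00000525750 and ENST00000531912.

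STAT2, IRF1 and IRF3 showed little difference. STAT2 had a log2 fold change of -0.06 (95% confidence interval -0.17 to 0.04), which was -0.12 without shNT replicate 2 and -0.02 without shNT replicate 3. IRF1, a factor induced by interferon gamma, had 0.02 (interval -0.14 to 0.17). IRF3, the highest of this role, was at 77.7, 78.3 and 90.8 CPM in shARMC5 and at 78.2, 78.7 and 85.4 CPM in shNT, with a log2 fold change of 0.02 (interval -0.13 to 0.18). The third library was the highest in both groups.

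**Figure D3:**
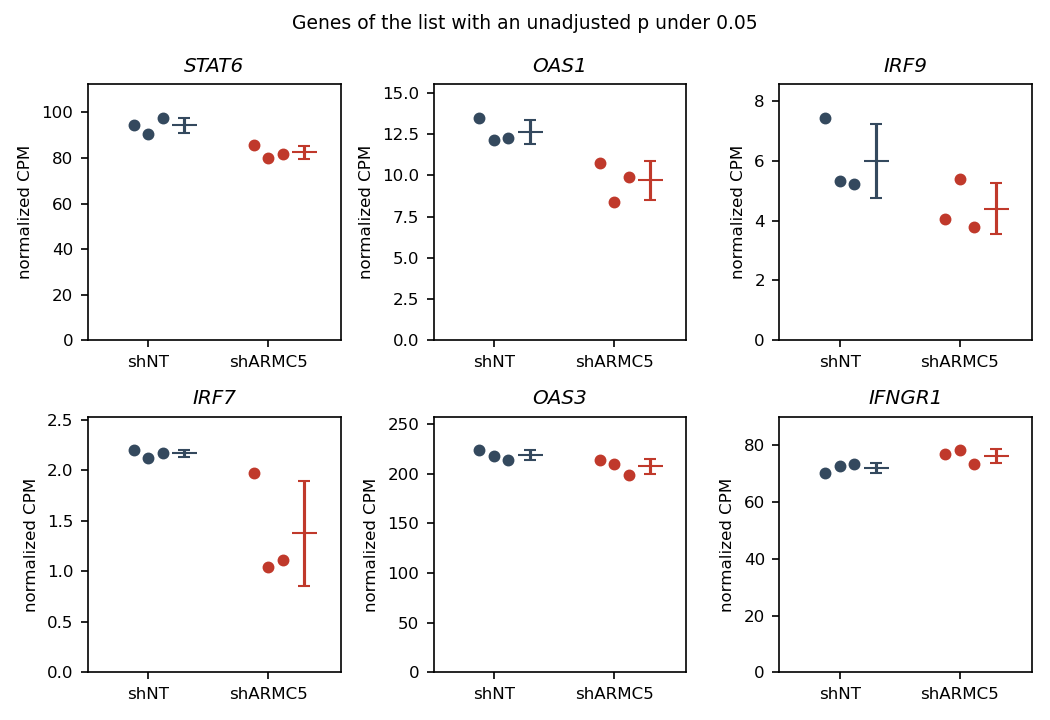
Normalized CPM of the 6 genes with an unadjusted P under 0.05 in each library, with the mean and SD (n = 3) beside the points. The groups are apart in STAT6, OAS1 and IRF7, and overlap or meet in IRF9, OAS3 and IFNGR1.

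The 4 receptor genes were all expressed and none was called, against 7.75% of all tested genes. IFNGR1, the ligand-binding chain for interferon gamma, was at 76.9, 78.2 and 73.3 CPM in shARMC5 and at 70.0, 72.5 and 73.3 CPM in shNT. Its lowest shARMC5 library met its highest shNT library, and the log2 fold change was 0.08 (SE 0.038, unadjusted P = 0.0449, adjusted P = 0.264). It was the member with an unadjusted P under 0.05 on the higher side. IFNAR1 was at 85.7 ± 1.58 CPM in shARMC5 against 82.1 ± 1.57 CPM in shNT, with groups that did not overlap and a log2 fold change of 0.06 (adjusted P = 0.375). IFNAR2 and IFNGR2 had values of 0.15 and -0.19 with wider intervals (-0.19 to 0.50 and -0.56 to 0.18). The direction of IFNAR2 turned without shARMC5 replicate 2 (-0.04) and with the length offset (-0.04 in edgeR and -0.05 in DESeq2), and IFNGR2 ran from -0.37 to -0.04 when single libraries were left out. The long form of IFNAR2, which carries the signalling tail and codes for 515 amino acids, had 0 reads in 3 of the 6 libraries and at most 182 reads in any, and the 331 amino acid form held between 69.9% and 98.2% of the gene's reads.

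The RNA sensors RIGI and IFIH1 bind viral RNA in the cytoplasm and signal through MAVS. RIGI had a log2 fold change of 0.02 (95% confidence interval -0.12 to 0.17). IFIH1 (MDA5) was at 39.1, 41.1 and 37.8 CPM in shARMC5 and at 42.5, 41.8 and 42.4 CPM in shNT, a small separation without overlap at -0.10 (adjusted P = 0.299). DDX60, a helicase related to them, had -0.07 (interval -0.48 to 0.34). Its value was 0.09 without shARMC5 replicate 3, 0.02 without shNT replicate 1, and -0.46 in edgeR and -0.47 in DESeq2 with the length offset.

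EIF2AK2 and ADAR were measured most precisely. EIF2AK2 was at 241.5, 247.4 and 232.8 CPM in shARMC5 and at 250.9, 248.1 and 250.2 CPM in shNT. All of its shARMC5 libraries lay below the shNT libraries, and the log2 fold change was -0.05 (interval -0.11 to 0.01, adjusted P = 0.341). ADAR was at 361.7 ± 4.29 CPM in shARMC5 and 366.6 ± 9.89 CPM in shNT, a log2 fold change of -0.02 (interval -0.08 to 0.04).

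ADAR makes a long, interferon-inducible protein from an upstream start codon (chr1:154608004-154608006) and a shorter, constitutive protein from a downstream one (chr1:154601754-154601756). Whether the division of its reads follows interferon signalling in these cells was not tested. Transcripts with the upstream codon held 33.5%, 40.5% and 33.9% of the ADAR reads in shARMC5 and 31.3%, 36.4% and 32.6% in shNT. The groups overlapped, and replicate 2 was the highest in each. The means were 36.0% ± 3.93 and 33.4% ± 2.67 (n = 3 each, two-sided exact permutation P = 0.5). Transcripts with the downstream codon held 61.9% ± 3.47 and 64.5% ± 2.34 (P = 0.4, exact). Salmon divided these reads by likelihood among transcripts that share most of their bases, and no counting interval was given to the shares for that reason.

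The IFIT proteins bind viral RNA ends, and their genes are neighbours on chromosome 10. IFIT1, IFIT2 and IFIT3 overlap LIPA on the opposite strand, which had 1785 to 2990 reads and a log2 fold change of -0.03. IFIT2 and IFIT3 had log2 fold changes of -0.50 and -0.30 with groups that did not overlap, but on 20 to 63 and 42 to 64 reads (adjusted P of 0.378 and 0.534). IFIT1, with 2 ISRE cores in the stretch above, had 0.12 (interval -0.26 to 0.49), and ran from 0.01 to 0.29 over the alternative fits. IFIT5, the highest of the family and the best measured, was at 26.9, 27.3 and 25.0 CPM in shARMC5 and at 27.6, 27.9 and 25.7 CPM in shNT, with -0.04 (interval -0.17 to 0.09). Its groups overlapped.

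Among the other effectors, MX1, a GTPase against incoming virus, was at 7.33, 7.5 and 6.90 CPM in shARMC5 and at 7.03, 7.49 and 6.85 CPM in shNT. Its groups overlapped at a log2 fold change of 0.02 (interval -0.21 to 0.25), which turned to -0.21 with the length offset (adjusted P = 0.566). The fold change was -0.003 without shARMC5 replicate 2, and -0.003 without shNT replicate 3. On the opposite strand MX1 overlaps TMPRSS2, which had 849 to 1214 reads, against 174 to 296 for MX1. The log2 fold change of TMPRSS2 was -0.20 (edgeR adjusted P = 0.0765), and the libraries as described do not record strand. ISG20, an exonuclease, had 17 to 34 reads and a value of 0.39 (interval -0.32 to 1.09), which ran from 0.14 to 0.53 over the alternative fits.

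ISG15 was at 41.9, 45.5 and 47.5 CPM in shARMC5 and at 40.6, 40.7 and 43.4 CPM in shNT. Replicate 3 of shNT lay among the shARMC5 libraries, and the log2 fold change was 0.11 (SE 0.054, unadjusted P = 0.0523, adjusted P = 0.282). HERC6, of the family of ligases that attach ISG15, had -0.01 (interval -0.11 to 0.10). IFI6, a mitochondrial and ER membrane protein, was at 14.5, 16.0 and 13.1 CPM in shARMC5 and at 13.3, 13.4 and 12.1 CPM in shNT, with 0.18 (interval -0.01 to 0.36) and groups that overlapped. IFI27 and IFI35 had 6 to 31 and 31 to 81 reads, and values of 0.33 and 0.08 that carried wide intervals (-0.79 to 1.46 and -0.49 to 0.65). Without shARMC5 replicate 2 they were at -0.49 and -0.19, and IFI35 was at -0.04 without shNT replicate 1.

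PARP9 and PARP14, neighbours on chromosome 3, had log2 fold changes of -0.02 and -0.06. PARP14, an ADP-ribosyltransferase, was at 154.5, 151.2 and 144.8 CPM in shARMC5 and at 165.3, 149.2 and 154.1 CPM in shNT, so the groups overlapped. TRIM21, the cytosolic antibody receptor, had 0.08 (interval -0.06 to 0.22).

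None of the members in the class I pathway was called, against 7.75% of all tested genes. TAPBP (tapasin), which holds the peptide loader to class I, was at 101.2, 101.4 and 113.9 CPM in shARMC5 and at 98.9, 92.1 and 109.3 CPM in shNT. Its groups overlapped, with a log2 fold change of 0.07 (interval -0.12 to 0.27) that ran from 0.02 to 0.14 over the alternative fits. TAP1, a subunit of the peptide pump, had 0.05 (interval -0.12 to 0.22). All of the TAP1 reads were assigned to transcripts annotated without a defined coding sequence. HLA-E, the class I molecule read by natural killer cells, was at 77.4, 77.2 and 77.2 CPM in shARMC5 and at 77.8, 74.8 and 70.3 CPM in shNT, with 0.06 (interval -0.03 to 0.14). Its shARMC5 libraries were nearly equal and lay within the spread of shNT.

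TAP2, the other subunit of the pump, was not tested. The gene had 0 reads in the 3 shARMC5 libraries and 419, 786 and 0 reads in shNT, all on ENST00000374897. One library of the control group was thus at 0 like the shARMC5 libraries, and no fold change is given.

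HLA-B and HLA-C, classical heavy chains, varied more between libraries of 1 group than between groups. HLA-B had 4, 16 and 10 reads in shARMC5 and 5, 30 and 2 reads in shNT, all on transcripts annotated as retained introns. HLA-C had 209, 68 and 43 reads in shARMC5 and 152, 121 and 79 reads in shNT, all on ENST00000376228. The highest and the lowest HLA-C library were both shARMC5 libraries. The log2 fold changes were -0.31 and -0.12 (intervals -2.36 to 1.73 and -2.02 to 1.78), and neither direction held when libraries were left out. HLA-B was at 1.42 without shNT replicate 2 and at 0.04 without shARMC5 replicate 1. HLA-C was at -1.12 without shARMC5 replicate 1 (adjusted P = 0.0166, past the threshold), at 0.22 and 0.18 without shARMC5 replicates 2 and 3 and at 0.07 without shNT replicate 1. Unmatched transcripts listed just after these genes held up to 69.1 reads (ENST00000639848, after HLA-B) and up to 176.7 reads (ENST00000640219, after HLA-C), and adding these gave 0.19 and 0.06. The HLA genes are near-identical in part, so the division of reads among them is uncertain.

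B2M was at 23.0, 25.1 and 21.8 CPM in shARMC5 and at 19.1, 24.6 and 21.1 CPM in shNT. The groups overlapped, with a log2 fold change of 0.11 (interval -0.08 to 0.31, adjusted P = 0.568). B2M ran from 0.03 to 0.22 over the alternative fits. Few of its reads were assigned to transcripts that code for the full protein of 119 amino acids. Those annotated as protein coding held 1.17%, 1.81% and 1.85% of the B2M reads in shARMC5 and 5.0%, 3.08% and 5.09% in shNT, or 8.1 to 18 reads against 24.5 to 31.2 reads. The groups did not overlap, and the exact permutation P of 0.1 (two-sided) is the smallest that 3 against 3 can give. Transcripts annotated for nonsense-mediated decay held 89.2% ± 2.20 in shARMC5 and 88.0% ± 6.53 in shNT. The files also list unmatched transcripts next to those of B2M, which are not in the values above. One of these, ENST00000544417, listed just after the gene and singled out after its values were seen, had between 538 and 1015 reads, against between 550 and 991 for the matched gene. Whether it belongs to B2M was not tested.

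**Figure D4:**
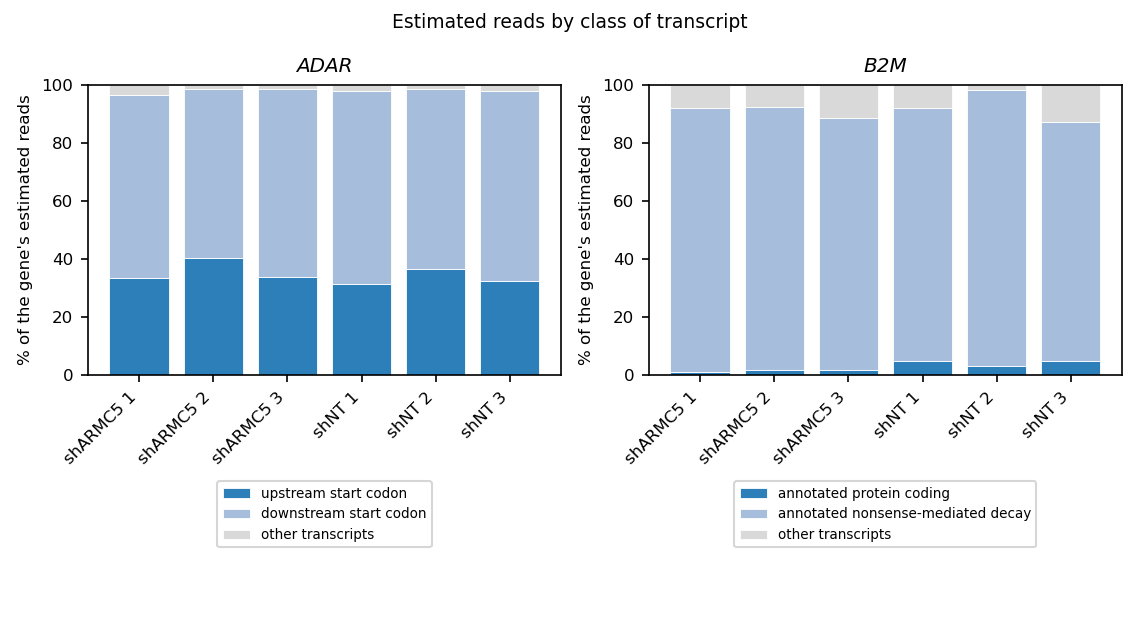
The share of the estimated reads of ADAR (left) and B2M (right) in each library by class of transcript, in percent. The upstream start codon of ADAR holds between 31.3% and 40.5%, and the transcripts of B2M annotated as protein coding between 1.17% and 5.09%.

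Tested one by one, 130 transcripts of 36 members passed the filter, and edgeR called 0 of them, with 6 (4.62%) at an unadjusted P under 0.05 and a smallest adjusted P of 0.333. Over all 51892 transcripts, 4 were called (0.00771%) and 2493 (4.8%) had an unadjusted P under 0.05.

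The presence of the ISRE core was set beside the fold changes. Of the 18 tested genes with the core, 0 were called by edgeR, 8 were negative and 10 positive, and the median log2 fold change was 0.04. Of the 14 tested genes whose windows lacked it in the letters searched, 2 were called (STAT6 and OAS1), 9 were negative and the median was -0.04. OAS1 was counted as lacking the core, although its window holds 2 GAAA runs at a closer spacing than the search asked for. Over all tested genes 7.75% were called, and the difference between genes with and without the core was not tested. The 7 genes without a promoter entry had a median of 0.02 and no call.

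A wider list of 100 genes of the same pathway gave 78 tested genes, of which 2 were called higher and 2 lower (5.13%, against 7.75% of all tested genes), with 41 negative and a median log2 fold change of -0.00370, against -0.00142 over all tested genes. At an unadjusted P under 0.05 there were 14 of the 78, against 2481 of all 13737 tested genes. None of the 8 interferon genes on it (IFNA1, IFNB1, IFNE, IFNK, IFNG and IFNL1 to IFNL3) passed the filter: 7 had 0 reads in all libraries and IFNE had between 1 and 15. Of 9 genes for other receptors and JAK-STAT proteins, 0 were called by edgeR, with 1 at an unadjusted P under 0.05. For JAK1, a kinase of both receptor types, the log2 fold change was -0.01 (adjusted P = 0.953).

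Among 7 tested negative regulators, 2 were called, in opposite directions, against 3.3% of all tested genes called lower and 4.44% higher. PTPN1, a phosphatase that removes phosphate from JAK2 and TYK2, was at 118.7, 118.3 and 114.7 CPM in shARMC5 and at 98.2, 106.9 and 100.7 CPM in shNT. All shARMC5 libraries lay above all shNT libraries, with 0.20 (SE 0.036, adjusted P = 0.00313). PTPN6 (SHP-1), a phosphatase that dampens JAK signals, was at 22.8, 21.5 and 24.6 CPM in shARMC5 and at 26.6, 26.5 and 25.7 CPM in shNT, with -0.20 (SE 0.064, adjusted P = 0.0912). Its call was lost when any library other than shARMC5 replicate 3 was left out (adjusted P from 0.158 to 0.311), with DESeq2 (0.179) and with the length offset (0.244 in edgeR and 0.138 in DESeq2). The fold change of PTPN6 lay between -0.30 and -0.15 in all alternative fits.

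Among 36 other interferon-stimulated genes, GBP3, a guanylate-binding GTPase, was called at 28.8, 27.2 and 26.5 CPM in shARMC5 against 23.9, 23.3 and 23.0 CPM in shNT, with 0.23 (SE 0.060, adjusted P = 0.0319). The groups did not overlap, and the call was lost without shARMC5 replicate 1 (adjusted P = 0.136), without shNT replicate 3 (0.114) and with the length offset (0.246 in edgeR and 0.201 in DESeq2). The fold change of GBP3 lay between 0.20 and 0.26 in all alternative fits. Among 14 antigen presentation genes, ERAP2, which trims peptides for class I, was called at 114.4, 117.1 and 109.8 CPM in shARMC5 against 122.8, 123.0 and 124.6 CPM in shNT, with -0.12 (SE 0.033, adjusted P = 0.0529). This call was lost without shARMC5 replicate 1 or 3 (adjusted P = 0.104 and 0.178), without shNT replicate 1 or 3 (0.133 and 0.159) and with the length offset in edgeR (-0.22, adjusted P = 0.2), but not with that offset in DESeq2 (0.0463). The fold change of ERAP2 lay between -0.22 and -0.09 in all alternative fits. Of 12 tested sensing and signalling genes, 0 were called by edgeR, with 3 at an unadjusted P under 0.05. These counts stand beside 7.75% of all 13737 tested genes called, and 2481 of them at an unadjusted P under 0.05.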

How the data were processed

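The 6 files hold, for each of 177456 transcripts, the estimated count of reads and TPM as deposited by the authors, who trimmed reads with cutadapt 4.2 and quantified them with Salmon 1.9.0 with correction for GC content; processing notes name hg38, and the transcript set is not given in the sources used here. Here 165533 transcripts were matched by identifier without version to GENCODE 44; the rest held between 2.96% and 3.04% of reads. A gene's estimated count is the rounded sum over its transcripts. A minimum of 10 counts in 3 libraries was asked before testing with edgeR 4.0.16 (quasi-likelihood F test, TMM, R 4.3.3), Benjamini-Hochberg adjustment and a threshold of 0.1. CPM is TMM-normalized; TPM is the authors' value summed per gene. The code was tested on simulated data. Alternatives were DESeq2 1.42.0, its size factors, library size only, a transcript length offset, other filters, a replicate term, a threshold of 0.05, unmatched transcripts added to the gene listed before them, and leaving out each library. Per-library values were given for genes with an adjusted P under 0.1 or unadjusted P under 0.05, the member with the highest TPM of each role and the called genes of the wider list; others shown this way (HLA-B, HLA-C, HLA-E, TAP2) were added after values were seen. Permutation tests used scipy 1.17.1. Members and lists were chosen with earlier results of these data known. A few genes of the wider lists are not reported here.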

Additional observations from a re-analysis of the deposited data

How the results depend on the processing

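Called members were 2 lower and 0 higher. The count of lower members was 0 with the transcript length offset in edgeR and in DESeq2, and ran from 1 to 4 when single libraries were left out. The 4 were STAT6, OAS1, IRF7 and HLA-C without shARMC5 replicate 1. No alternative called a member higher, and the number of member transcripts called stayed at 0. The length offsets include the average effective length of a gene's transcripts in each library, and the cause of the lost calls was not tested. IRF9 was called (adjusted P = 0.0538) when genes with at least 1 count were kept, and was at 0.06 when unmatched transcripts were added to the gene listed before them. The median log2 fold change of the members lay between -0.04 and 0.03 over all alternatives, on either side of 0. In 16 members, none of them called under the settings of the report, the sign changed in at least 1 alternative: ADAR, DDX60, HERC6, HLA-B, HLA-C, IFI27, IFI35, IFNAR2, IRF1, IRF3, IRF9, MX1, OASL, PARP9, RIGI and TAP1. Without a sign change, IFI6 ran from 0.10 to 0.24 over the alternatives, and ISG15 from 0.07 to 0.16. TRIM21 ran from 0.03 to 0.14 and HLA-E from 0.02 to 0.09. PARP14 ran from -0.09 to -0.01, EIF2AK2 from -0.07 to -0.01, IFIT5 from -0.074 to -0.003 and IFIT2 from -0.64 to -0.32. In the wider list the lower calls were 0 with the edgeR length offset, 1 with DESeq2 with or without it, 6 with genes of at least 1 count, 0 at an adjusted P under 0.05, and from 0 to 2 without single libraries. The higher calls were 1 with either offset and from 1 to 3 without single libraries. Over all genes, 1064 calls became 234 and 568 with the offsets, 676 at the stricter threshold and 536 to 1074 without single libraries. Over all tested genes, libraries that share a replicate number showed no correlation of their deviations from the group mean (-0.01, -0.01 and -0.02). Genes with few and with many reads weigh alike in this measure, so it cannot exclude pairing. With a replicate block, 1766 genes were called, with 5 lower and 5 higher in the wider list, and among the members OAS3 joined STAT6 and OAS1 (-0.08, adjusted P = 0.0528). Genes with under 200 reads limit what this depth can show.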

Other observations

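An unmatched transcript of 5517 bases in the files, ENST00000457634, had 738, 271 and 572 reads in shARMC5 and 0, 0 and 601 reads in shNT. Its reads were present in the libraries in which TAP2 (ENST00000374897, 5643 bases) had 0 reads, and absent in the 2 shNT libraries in which TAP2 had 419 and 786. It was singled out after these values were seen, by a search for unmatched transcripts at 0 in those 2 libraries and above 200 reads in the other 4, which returned 1 other transcript (ENST00000248923, 2363 bases). The annotation used here does not name either transcript, and whether they share sequence with TAP2 was not tested.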
